A study of Mus musculus with 6 samples.

Results

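Imprinted genes are expressed mainly from the allele inherited from one parent, and 47 such mouse genes outside the Dlk1-Dio3 domain were followed in tissue around the embryonic inner ear, in Tbx1 conditional knockout embryos and their heterozygous controls. The genes were chosen by name as known imprinted genes, and the rule used no measured value, though earlier results of these data were known. Of the 47, 43 had at least 1 probe set listed for that gene alone, and 41 were bright enough to be tested, among 14170 genes tested in all. By the allele known to be expressed, 20 of the 47 fell in a paternally expressed class, 23 in a maternally expressed class and 4 in a class whose allele depends on isoform or tissue (Grb10, Gnas, Blcap and Inpp5f).

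The tissue was the otic vesicle, the epithelial sac that becomes the inner ear, dissected together with the mesenchyme around it at embryonic day 11.5. The Mest-KO group (3 arrays) had Tbx1 knocked out conditionally by T-Cre, and the control group (3 arrays) was heterozygous for that T-Cre conditional knockout, so the controls were not wild type and both groups carried the Cre. Each array held RNA of both ears of 3 embryos of 1 genotype, and 300 ng of total RNA was labelled. T-Cre is active in mesoderm, so Tbx1 in the otic epithelium is not its target. The group name Mest-KO is the submitters' name for these Tbx1 mutants and does not refer to the imprinted gene Mest, which is one of the 47 genes and which the labels do not give as altered.

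Imprints are marks of DNA methylation set differently in egg and sperm at imprinting control regions, and they are kept through development by factors such as the zinc finger protein ZFP57. Many imprinted genes lie in clusters in which a noncoding RNA or an insulator, read or bound on one parental copy, silences several neighbours on that copy. Several of their products act on embryonic growth: the growth factor IGF2, its scavenging receptor IGF2R, the receptor adaptor GRB10 and the cell cycle inhibitor CDKN1C. Expression arrays of this kind sum both alleles, so they measure the level of an imprinted gene and not which allele it came from.

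A set of 3 promoter stretches is shown first because Peg3 and Grb10 each had 3 kept probe sets on which the groups did not overlap, and because Grb10 has more than 1 start. They are RefSeq promoter windows of GRCm38.p6, on the minus strand, printed in the direction of transcription, with each CpG in capitals. The Peg3 window lies at chr7:6730370-6730669, the upstream Grb10 window at chr11:12037371-12037670 and the downstream Grb10 window at chr11:12027922-12028221.
Peg3 promoter: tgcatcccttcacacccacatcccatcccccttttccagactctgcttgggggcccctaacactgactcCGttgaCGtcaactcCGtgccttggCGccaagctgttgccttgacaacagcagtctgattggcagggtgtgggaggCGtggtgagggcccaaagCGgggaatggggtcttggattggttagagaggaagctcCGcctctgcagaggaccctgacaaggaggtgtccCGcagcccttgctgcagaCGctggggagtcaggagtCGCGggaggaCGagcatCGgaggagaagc
Grb10 upstream promoter: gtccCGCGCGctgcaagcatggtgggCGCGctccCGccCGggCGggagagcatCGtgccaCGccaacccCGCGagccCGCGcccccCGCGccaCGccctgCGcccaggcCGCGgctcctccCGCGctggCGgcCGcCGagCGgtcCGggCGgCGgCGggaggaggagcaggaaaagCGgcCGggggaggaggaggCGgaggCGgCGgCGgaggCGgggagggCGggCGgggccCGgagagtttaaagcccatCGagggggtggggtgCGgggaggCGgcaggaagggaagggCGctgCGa
Grb10 downstream promoter: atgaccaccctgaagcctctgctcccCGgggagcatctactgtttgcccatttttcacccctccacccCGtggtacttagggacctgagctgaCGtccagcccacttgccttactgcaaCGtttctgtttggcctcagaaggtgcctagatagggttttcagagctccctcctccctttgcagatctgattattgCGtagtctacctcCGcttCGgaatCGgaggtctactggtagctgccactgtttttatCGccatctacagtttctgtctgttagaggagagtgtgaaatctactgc
The upstream Grb10 window held 45 CpGs, a count that 1.93% of all 32851 windows of 300 bases reached. The downstream Grb10 window held 9, a count that 45.8% of windows reached, and its start lay 9449 bases from the upstream one. The Peg3 window held 13 CpGs, which 37.9% of windows reached, and the start of Usp29, read in the opposite direction, lay 164 bases away. These windows are a description of the loci, and the probe sets below were not assigned to either Grb10 start.

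Pairs of arrays had log2 intensities correlated at 0.987 or more. The correlations ran from 0.991 to 0.993 within groups and from 0.987 to 0.992 across groups. The targeted gene did not check the labels: Tbx1 had intensities of 520.5, 578 and 409.9 in Mest-KO pools, against 524.5, 567 and 446.7 in control pools, a log2 difference of -0.03 ± 0.14 (SE, limma, adjusted p 0.967), and whether its probe set lies in the deleted part is not given in the sources used here. Markers of the dissected parts were present on every array, with Oc90 of the otic epithelium at 3050 to 3782 in Mest-KO and 2915 to 3378 in control, and Twist1 of the mesenchyme at 3293 to 3518 in Mest-KO and 3386 to 3571 in control. The marker lists of this paragraph were chosen with earlier results of these data known. Their counts and shares are thus a description and do not test whether the tissues differed. Of 19 tested otic epithelium genes 8 were higher and 11 lower in Mest-KO, none passed the threshold and 2 did not overlap (10.5%, against 14.5% of all genes): Otx1 at a log2 difference of -0.79 and Cdh1 at -0.37. Of 19 tested periotic mesenchyme genes 7 were higher and 12 lower, and 6 did not overlap (31.6%). Meox1 was the one that passed, 1.15 higher in Mest-KO on the log2 scale (adjusted p 0.0433), while Foxf1 (-0.96, adjusted p 0.106) and Foxf2 (-0.66, adjusted p 0.195) were lower without overlap; Otx1, Cdh1, Foxf1 and Foxf2 are named after their values were seen. Markers of tissue that the dissection can carry along also differed in part. The summed intensity of 15 hindbrain neural tube genes was 1612 to 2824 in Mest-KO and 2151 to 5366 in control. The second control pool, at 2151, lay within the Mest-KO range. By log2 difference 14 of the 15 were lower in Mest-KO. All 18 of 18 neuron and cranial ganglion genes were higher (sums 54988 to 57468 in Mest-KO, 47185 to 51072 in control). Blood endothelium had 10 genes higher and 1 lower, macrophages 8 and 2, head muscle 10 and 3 and erythroid cells 0 and 9, none past the threshold. Sums of 6 pharyngeal endoderm genes did not overlap, at 1883 to 2201 in Mest-KO and 2636 to 3387 in control. Of these markers, 1 endoderm gene (Foxa1), 1 neural tube gene (Skor1) and 2 neuron genes (Pou4f1 and Neurog1) passed the test. Many imprinted genes are also read in neural tissue, and the part of these markers in the values below was not tested. Sex markers also varied between pools. Of 4 tested, 3 were higher and 1 lower in Mest-KO, none past the threshold and all with overlap. Eif2s3y differed by 0.57 ± 0.19 (limma, adjusted p 0.382) and Xist by -0.36 ± 0.17. Mean log2 deviations of Y-linked genes were 0.26, 0.23 and 0.006 in Mest-KO pools, against -0.49, 0.43 and -0.43 in control pools. The part of embryo sex in the values below was not tested.

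None of the 41 tested imprinted genes passed an adjusted p of 0.05 in limma, against 21 of 14170 genes tested (0.148%), of which 12 were higher and 9 lower in Mest-KO (22 and 56 after centring each array on its median). At an unadjusted p under 0.05 there were 3 imprinted genes, Atp10a, Airn and Slc22a18, or 7.32% of the tested members, against 8.97% of all genes. The smallest adjusted p of a member was 0.426, for Atp10a. Differences on the log2(intensity + 16) scale lay between -0.35 (Slc22a18) and 0.53 (Kcnq1ot1), with 19 genes higher and 22 lower in Mest-KO and a median of -0.0089, against a median of 0.0128 over all genes. In 7 members (17.1%) the 3 Mest-KO arrays and the 3 control arrays did not overlap, and 14.5% of all genes did the same. Kcnq1, Atp10a and Airn were the 3 that were higher on every Mest-KO array, a pattern that 9.32% of all genes had. Slc22a18, Peg3, Sgce and Grb10 were the 4 that were lower, a pattern that 5.22% of all genes had. Since the arrays hold bulk tissue, fewer cells of a type and less RNA per cell cannot be told apart in any of these values.

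**Figure D1:**
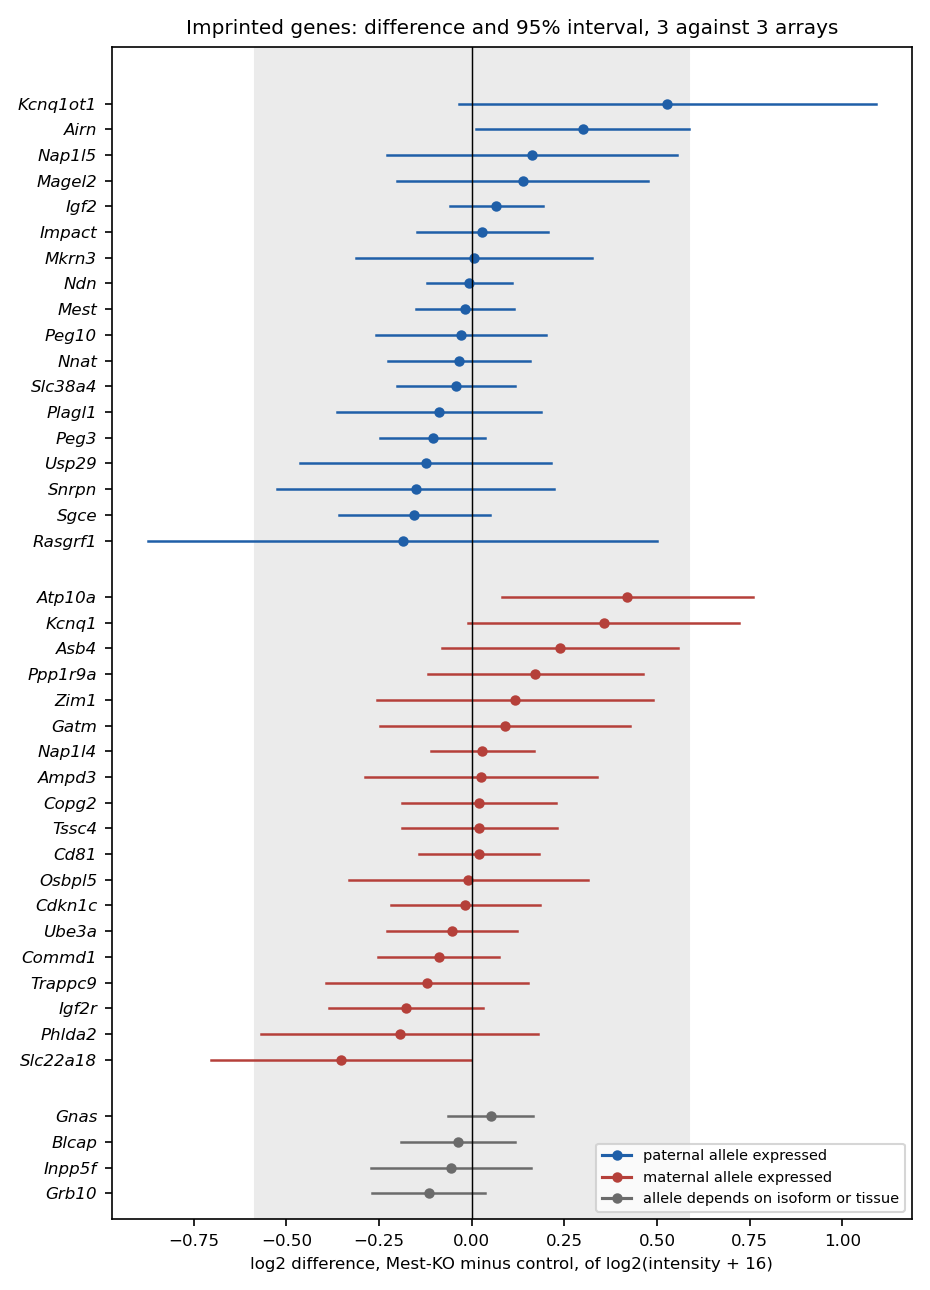
Log2 difference of Mest-KO minus control (x axis, of log2 intensity + 16) for the 41 tested imprinted genes (rows), with points for the estimate and bars for the 95% interval of the limma fit, 3 arrays against 3. Colours mark the expressed allele and the grey band marks differences under 1.5-fold; 35 of the 41 intervals lie within the band.

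The intervals of the differences are on the log2(intensity + 16) scale, which shrinks the differences of dim genes, so they do not bound the change of a dim gene's intensity. On that scale the 95% interval lay within 1.5-fold in either direction for 35 of the 41 (85.4%, against 79.7% of all genes), and it excluded a 2-fold change for 40 of the 41. With 1 added in place of 16, 31 of the 41 intervals lay within 1.5-fold (70.1% of all genes) and 38 excluded 2-fold, and those of Kcnq1ot1, Slc22a18 and Rasgrf1 did not. With 16, the 6 genes with wider intervals were Rasgrf1, Kcnq1ot1, Kcnq1, Slc22a18, Atp10a and Airn, and Kcnq1ot1 was the gene whose interval reached beyond 2-fold. All 22 members with a mean intensity above 1000 had an interval within 1.5-fold, as did 97.6% of the 5192 genes at that level, and the 22 kept it with 1 or 64 added. The median size of the difference, sign left aside, was 0.089 over the members and 0.098 over all genes.

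Split by expressed allele, the counts were as follows. Of 18 tested paternally expressed genes, 7 were higher and 11 lower in Mest-KO, with a median log2 difference of -0.023, and 3 did not overlap (16.7%, against the 14.5% of all genes). Of 19 tested maternally expressed genes, 11 were higher and 8 lower, with a median of 0.020, and 3 did not overlap (15.8%). Of the 4 genes of the third class, 1 was higher and 3 lower, with a median of -0.047. Neither the paternal nor the maternal class held a gene past the threshold, and the difference between the classes was not tested. Neither sign was stable to leaving out 1 array: the paternal median turned to 0.018 without the first Mest-KO array and 0.009 without the third control array. The maternal median turned to -0.0111 without the first Mest-KO array, -0.0055 without the second and -0.0041 without the first control array, and to -0.045 with median centring. Of 27 genes known to be imprinted broadly in the embryo, 6 did not overlap (22.2%, against 14.5% of all genes). Of 14 whose imprinting is known mainly in placenta, brain or single tissues, 1 did not overlap (7.14%), which was Atp10a. The difference between these counts was not tested.

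**Figure D2:**
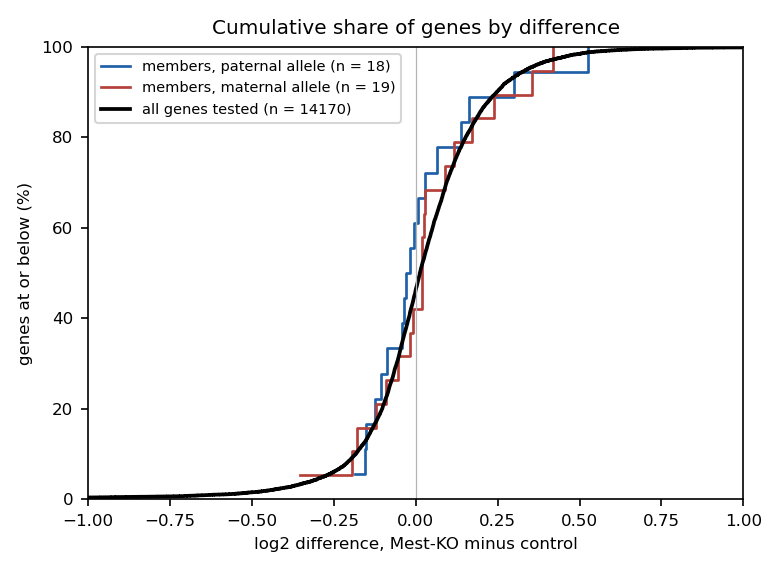
Cumulative share of genes (y axis, percent) at or below each log2 difference of Mest-KO minus control (x axis) for the 18 paternally expressed genes, the 19 maternally expressed genes and all 14170 genes tested. The curves of both classes run close to that of all genes, with medians of -0.023, 0.020 and 0.0128.

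The growth factor gene Igf2 and the genes around its signal came first among the roles. Igf2, a paternally expressed growth factor, had intensities of 8662, 8959 and 8488 in Mest-KO pools, against 8046, 8086 and 8818 in control pools. The groups overlapped through the third control pool, and the log2 difference was 0.07 ± 0.06 (SE, adjusted p 0.785). The scaling weighs on this value: it was 0.13 ± 0.05 with quantile normalization (unadjusted p 0.0198, the smallest of a member in that setting, adjusted p 0.439) and 0.0012 with each array centred on its median. Its dim second probe set read 163, 270.1 and 313 in Mest-KO and 328, 272 and 204 in control, a log2 difference of -0.12 ± 0.23. H19, the noncoding RNA read from the maternal copy of the same domain, was measured by a probe set listed for H19 and Mir675 together, so it is given for the pair. That probe set had intensities of 8617, 9499.8 and 9145 in Mest-KO, against 8927, 9494 and 9722 in control, a log2 difference of -0.05 ± 0.06 (limma over probe sets, adjusted p 0.856). Both products of the domain were thus bright on every array and their groups overlapped.

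Igf2r, the maternally expressed receptor that takes IGF2 into lysosomes, had 1667, 1596 and 1597 in Mest-KO pools, against 1839.7, 1632 and 2055 in control pools. The Mest-KO pools lay close together and overlapped the second control pool, and the log2 difference was -0.18 ± 0.09 (adjusted p 0.617). A dimmer Igf2r probe set had 107, 86.2 and 89.2 in Mest-KO, against 129, 140.4 and 129 in control, with no overlap and a log2 difference of -0.44 ± 0.15 (unadjusted p 0.0137, adjusted p 0.365 over all probe sets). Airn, the paternal noncoding RNA whose transcription across the Igf2r promoter silences Igf2r on that copy, had 392, 387 and 356 in Mest-KO pools, against 303, 350.4 and 265 in control pools. All 3 Mest-KO pools were above all 3 control pools, with a log2 difference of 0.30 ± 0.13 (95% interval 0.01 to 0.59, unadjusted p 0.042, adjusted p 0.534).

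The other Airn probe sets did not all share that pattern. One read 123, 116 and 103 in Mest-KO, against 132, 108 and 82.9 in control (log2 difference 0.09 ± 0.18). Another read 235, 138 and 98.9 in Mest-KO and 81.5, 117 and 83.0 in control (0.60 ± 0.26), where the first Mest-KO array was the highest and the third lay within the control range. A dimmer one read 39.4, 45.8 and 64.8 in Mest-KO and 52.6, 52.3 and 42.2 in control (0.01 ± 0.19), and the last was too dim to test. Within each array the log2 intensity of Airn minus that of Igf2r was 0.48 greater in Mest-KO than in control (exact permutation test, two-sided, p 0.1, the smallest that 3 against 3 can give). Adjusted over the 6 pairs of a paternal and a maternal gene compared in this way the p was 0.45, and the pairs were chosen after these data were seen.

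Grb10 encodes an adaptor that dampens signalling of the insulin and IGF receptors, and it is read from the maternal copy in most tissues and from the paternal copy in neurons. Its brightest probe set had 8267, 8453 and 8460.1 in Mest-KO pools, against 8524, 8695 and 10163 in control pools. The groups did not overlap, the third control pool was the highest, and the log2 difference was -0.12 ± 0.07 (95% interval -0.27 to 0.04, adjusted p 0.653). Without that control pool the difference was -0.04, and with quantile normalization -0.05.

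The 2 dimmer Grb10 probe sets went opposite ways. One had 207, 148 and 197 in Mest-KO, against 119, 114 and 115 in control, so that every Mest-KO array was above every control array, with a log2 difference of 0.59 ± 0.16 (unadjusted p 0.00326, adjusted p 0.255 over all probe sets). The other had 59.5, 129 and 146 in Mest-KO, against 191, 178 and 153 in control, with every Mest-KO array below every control array and a log2 difference of -0.65 ± 0.25 (unadjusted p 0.0264, adjusted p 0.435). The log2 difference of the first of these exceeded that of the brightest probe set by 0.70, with an exact permutation p of 0.1 and an adjusted p of 0.7 over 42 such pairs of probe sets. Which Grb10 transcript each probe set reads is not given in the sources used here, and the CpG-rich and CpG-poor starts printed above cannot be tied to either.

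Cdkn1c, the maternally expressed inhibitor of cyclin-dependent kinases, lies in the Kcnq1 domain, where the paternal noncoding RNA Kcnq1ot1 silences neighbours in cis. It had 2931, 3431 and 2826 in Mest-KO pools, against 3258, 2820.2 and 3209 in control pools, fully overlapping, with a log2 difference of -0.02 ± 0.09 (95% interval -0.22 to 0.18, adjusted p 0.975). Kcnq1ot1 had 407, 221 and 164 in Mest-KO pools, against 175, 173 and 151 in control pools. The first Mest-KO pool stood well above the other 5 arrays, and the log2 difference of 0.53 ± 0.25 (95% interval -0.04 to 1.09, adjusted p 0.576) became 0.18 without it. That array also had the highest Actb and Gapdh 3′ to 5′ ratios, 1.99 and 1.57, against 1.74 to 1.88 and 1.34 to 1.47 on the others, and their part in the Kcnq1ot1 value was not tested.

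The same array was highest on the next brightest pair of Kcnq1ot1 probe sets. These read 413, 177 and 117 in Mest-KO and 171, 113 and 201 in control (0.36 ± 0.35), and 86.7, 58.2 and 58.0 in Mest-KO and 65.6, 46.3 and 37.0 in control (0.36 ± 0.21). A further pair of Kcnq1ot1 probe sets lay between 10.1 and 19.2 on all arrays, at differences of -0.11 and 0.04, and a sixth was too dim to test.

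Of the 10 genes of the Kcnq1 domain 9 were tested, 5 higher and 4 lower in Mest-KO. Kcnq1, a voltage-gated potassium channel that later serves the endolymph of the inner ear, had 52.9, 63.9 and 50.7 in Mest-KO pools, against 43.7, 43.3 and 33.4 in control pools, with no overlap and a log2 difference of 0.36 ± 0.17 (95% interval -0.01 to 0.72, adjusted p 0.565). Slc22a18, a transporter of the organic cation family, had 22.1, 20.6 and 21.4 in Mest-KO pools, against 31.6, 33.0 and 30.4 in control pools, with no overlap and a log2 difference of -0.35 ± 0.16 (unadjusted p 0.049, adjusted p 0.555). Both genes were dim, and the pseudocount weighs on their size: with 1 in place of 16 the differences of Kcnq1 and Slc22a18 were 0.47 and -0.55, and with 64 they were 0.20 and -0.16. The second Slc22a18 probe set was too dim to test.

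Nap1l4, a nucleosome assembly protein and the brightest gene of the domain's maternal side, had 7239.95, 7633 and 7680.5 in Mest-KO pools, against 6822, 7765 and 7544 in control pools (0.03 ± 0.06, adjusted p 0.930). The remaining tested genes of the domain overlapped between groups. Phlda2, which limits placental growth, averaged 34.7 in Mest-KO and 42.0 in control (-0.19 ± 0.17), the tetraspanin gene Cd81 differed by 0.02 ± 0.07, Tssc4 by 0.02 ± 0.09 and the oxysterol-binding protein gene Osbpl5 by -0.01 ± 0.15. Ascl2, a trophoblast transcription factor, was not tested: its brightest probe set read 9.41, 12.6 and 7.19 in Mest-KO and 8.23, 10.5 and 7.85 in control, about the level of bacterial probe sets without spike (at most 11.2).

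**Figure D3:**
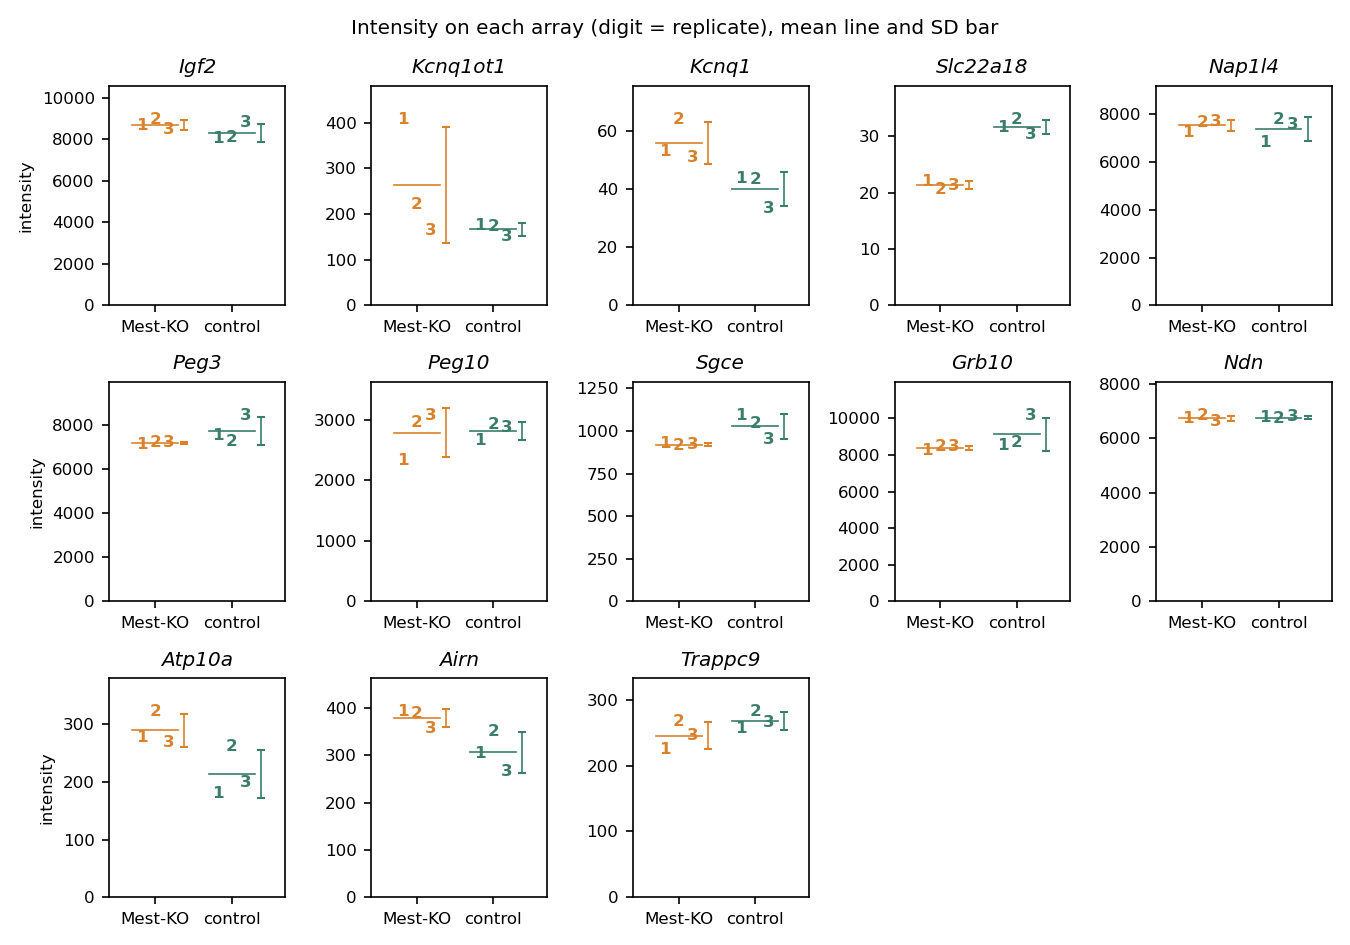
Intensity (y axes, linear, starting at 0) on each of the 6 arrays for the 13 imprinted genes described array by array, Mest-KO left and control right in each panel. Digits are the replicate numbers, horizontal lines the means and bars the SD of 3 arrays; Slc22a18 shows 20.6 to 22.1 in Mest-KO and 30.4 to 33.0 in control, and the first Mest-KO array stands alone in Kcnq1ot1 at 407.

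Peg3, a paternally expressed zinc finger gene, had 7108, 7199.7 and 7203 in Mest-KO pools on its brightest probe set, against 7533, 7229.5 and 8428 in control pools. The groups did not overlap, though the second control pool was close to the Mest-KO pools, and the log2 difference was -0.11 ± 0.06 (95% interval -0.25 to 0.04, adjusted p 0.666). Without the third control pool, and likewise with quantile normalization, it was -0.04. The next Peg3 probe set had 1864, 1770.4 and 1915 in Mest-KO and 1917, 1961 and 2471 in control (-0.18 ± 0.10). The third had 669, 656 and 717 in Mest-KO and 881, 896 and 805 in control, a log2 difference of -0.33 ± 0.10 (unadjusted p 0.00666, adjusted p 0.309 over all probe sets). On each of these 3 probe sets all Mest-KO arrays were below all control arrays, a pattern that 15% of all kept probe sets had in one direction or the other. Probe sets of 1 gene read the same RNA pools and are not replicates of each other. A further pair of Peg3 probe sets was too dim to test.

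Usp29, a deubiquitinase gene that shares the Peg3 promoter region shown above, averaged 563 in Mest-KO and 610.4 in control (-0.12 ± 0.15), and Zim1, a maternally expressed zinc finger gene of the same domain, was dim, with 33.7 in Mest-KO and 29.8 in control (0.12 ± 0.17). Both overlapped between groups.

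In the Peg10 domain, Peg10, a paternal gene derived from a retrotransposon, had 2321, 2957 and 3072 in Mest-KO pools, against 2652, 2929 and 2880.2 in control pools. The first Mest-KO pool was the lowest array, and the log2 difference of -0.03 ± 0.10 (adjusted p 0.962) turned to 0.10 without it. Sgce, its neighbour read in the opposite direction, encodes epsilon-sarcoglycan and had 928, 912 and 919 in Mest-KO pools, against 1091, 1044 and 947 in control pools. Its groups did not overlap, with a log2 difference of -0.15 ± 0.09 (95% interval -0.36 to 0.05, adjusted p 0.656). The second Sgce probe set read 31.2, 19.6 and 19.3 in Mest-KO and 17.1, 17.6 and 23.5 in control (0.15 ± 0.19), and with both averaged the gene's difference was -0.0046.

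The tested maternal genes of the domain were higher in Mest-KO, each with overlap on its brightest probe set. Asb4, a SOCS box protein gene, averaged 2345 ± 428 in Mest-KO and 1987 ± 371 in control (SD, n = 3 each), a log2 difference of 0.24 ± 0.14 (adjusted p 0.662). The log2 intensity of Peg10 minus that of Asb4 within each array differed by -0.27 in Mest-KO minus control. Its exact permutation p was 0.3, and 0.45 adjusted over the 6 pairs compared in this way. On the second Asb4 probe set every Mest-KO array was above every control array, with 649, 879 and 578 in Mest-KO against 566, 549 and 569 in control (0.29 ± 0.14, unadjusted p 0.0677, adjusted p 0.547 over all probe sets). Ppp1r9a, which encodes the actin-binding protein neurabin, averaged 1293 in Mest-KO and 1161 in control (0.17 ± 0.13). A dim Ppp1r9a probe set read 34.8, 42.2 and 33.7 in Mest-KO and 54.0, 53.9 and 46.9 in control, opposite in direction to the brightest one (-0.35 ± 0.16). Calcr, the calcitonin receptor gene, was below the filter, at 6.51, 13.02 and 10.6 in Mest-KO and 4.90, 8.14 and 0.668 in control.

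The imprinted gene Mest itself, a paternally expressed gene of the hydrolase fold that is strong in mesoderm, had 6824, 6685 and 7119 in Mest-KO pools, against 6599, 6982 and 7317 in control pools. The 2 groups interleaved, with a log2 difference of -0.02 ± 0.06 (adjusted p 0.956). Its neighbour Copg2, a coatomer subunit gene, differed by 0.02 ± 0.09.

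In the Snrpn domain, Ndn was the brightest gene tested. Ndn encodes necdin, a MAGE family protein that restrains growth of neural cells, and had 6713, 6833 and 6621 in Mest-KO pools, against 6749, 6707 and 6799 in control pools (-0.01 ± 0.05, 95% interval -0.12 to 0.11, adjusted p 0.985). The sign of this small difference turned under quantile normalization (0.05). The 4 other Ndn probe sets that were kept ran between -0.16 and 0.01, and on 1 of them the groups did not overlap, with 3312, 3300.15 and 3218 in Mest-KO and 3739, 3419.9 and 3783 in control (-0.15 ± 0.07). A further 3 were too dim to test.

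Atp10a, a maternally expressed phospholipid flippase gene, had 277, 322 and 269 in Mest-KO pools, against 181, 261 and 199.9 in control pools. The lowest Mest-KO pool lay just above the highest control pool, and the log2 difference was 0.42 ± 0.15 (95% interval 0.08 to 0.76, unadjusted p 0.0197, adjusted p 0.426). The dimmer Atp10a probe sets read 183, 166 and 152 in Mest-KO and 157, 150.4 and 107 in control (0.26 ± 0.17), and 106.0, 106 and 97.4 in Mest-KO and 76.6, 119.9 and 99.2 in control (0.07 ± 0.17). A last Atp10a probe set was too dim to test. With all Atp10a probe sets averaged, this last one included, the difference was 0.20.

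Ube3a, the ubiquitin ligase gene that is imprinted in neurons, averaged 2119 in Mest-KO and 2199 in control on its brightest probe set (-0.05 ± 0.08). A pair of dim Ube3a probe sets did not overlap, at 96.2, 118 and 93.2 in Mest-KO against 152, 129 and 133 in control (-0.38 ± 0.15), and at 47.6, 60.9 and 51.3 in Mest-KO against 90.0, 70.7 and 75.4 in control (-0.45 ± 0.17). A dim Ube3a probe set of similar level went the other way, with 82.2, 80.3 and 58.0 in Mest-KO against 50.9, 53.3 and 62.6 in control and an overlap through the third pools (0.31 ± 0.17, unadjusted p 0.0995). The remaining kept Ube3a probe sets were brighter than these dim ones and lower in Mest-KO, with overlap (-0.11 ± 0.13 and -0.21 ± 0.12). Magel2, a further MAGE family gene, differed by 0.14 ± 0.15 and Mkrn3, a RING finger gene, by 0.01 ± 0.14. Snrpn, a gene for a neural splicing protein, had 1 dim probe set of its own (-0.15 ± 0.17). A bright probe set listed for Snurf and Snrpn together read 2953, 3341 and 3409 in Mest-KO and 3126, 3268 and 2511 in control, with overlap (0.13 ± 0.10). The other kept probe sets listed for the pair differed by 0.11 ± 0.10, -0.11 ± 0.11 and -0.11 ± 0.15, each with overlap.

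**Figure D4:**
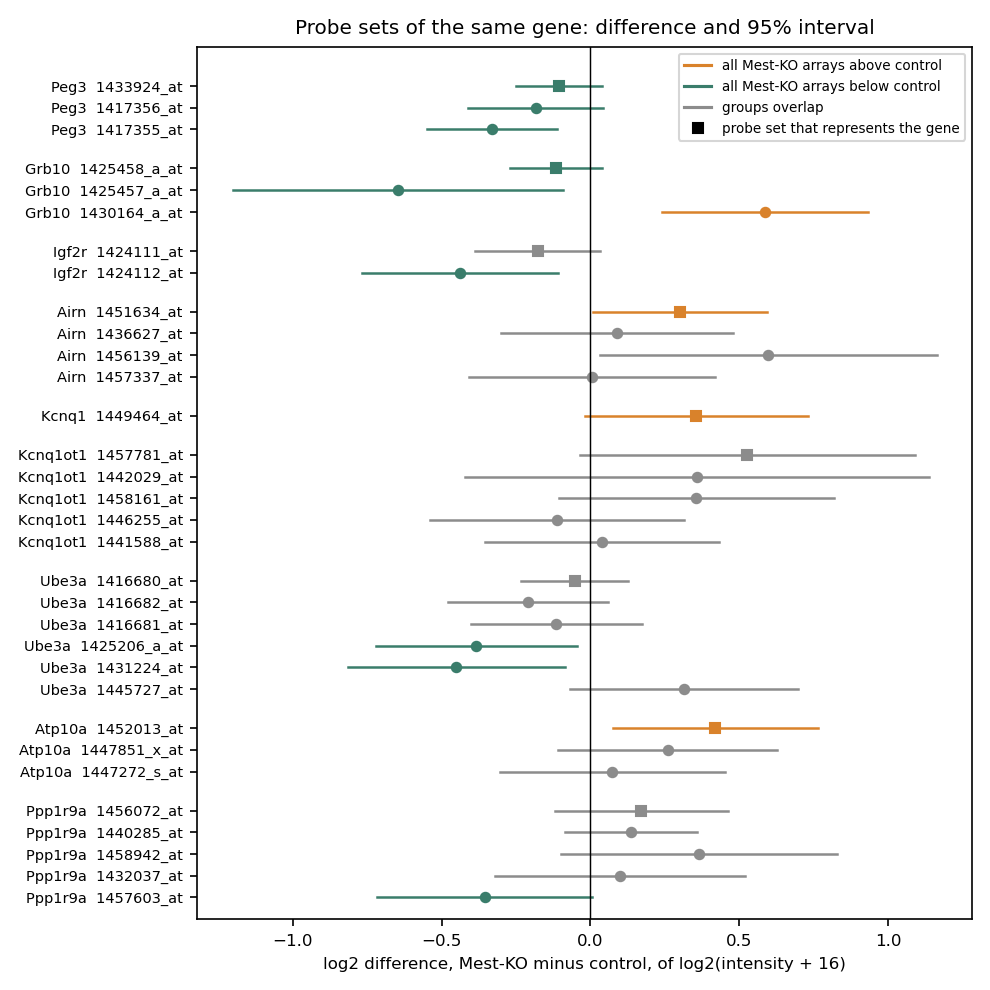
Log2 difference of Mest-KO minus control (x axis) with its 95% interval for every kept probe set of 9 imprinted genes (rows, labelled by gene and probe set), from the limma fit over all probe sets. Squares mark the probe set that represents the gene, and colours mark probe sets on which all Mest-KO arrays lie above or below all control arrays; the 3 Peg3 probe sets are all lower, and 1 dim Grb10 probe set lies at 0.59 where the others lie at -0.12 and -0.65.

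The remaining genes stand in other domains or alone, and on the probe set that represents each gene the groups overlapped. Plagl1, a zinc finger growth regulator, differed by -0.09 ± 0.12, and Gnas, which gives the G protein alpha subunit and other products, by 0.05 ± 0.05. Nnat, which encodes the proteolipid neuronatin, differed by -0.03 ± 0.09 and Blcap, in which Nnat lies, by -0.04 ± 0.07. Impact, an inhibitor of the translation kinase GCN2, differed by 0.03 ± 0.08 and Slc38a4, an amino acid transporter gene, by -0.04 ± 0.07. Their intervals all lay inside 1.5-fold. A dimmer Impact probe set read 203, 232 and 257 in Mest-KO and 257, 105 and 76.9 in control, overlapping through the first control pool (0.76 ± 0.32, unadjusted p 0.0349, adjusted p 0.465 over all probe sets).

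Commd1, a gene of copper handling, differed by -0.09 ± 0.07 and Inpp5f, a phosphoinositide phosphatase gene, by -0.06 ± 0.10. A dim Inpp5f probe set did not overlap, with 28.1, 23.8 and 31.9 in Mest-KO against 39.4, 38.3 and 32.8 in control (-0.27 ± 0.17). Gatm, an enzyme of creatine synthesis, differed by 0.09 ± 0.15, the AMP deaminase gene Ampd3 by 0.03 ± 0.14 and the nucleosome assembly gene Nap1l5 by 0.16 ± 0.18. Trappc9, the tested gene of the Peg13 domain and a subunit of a vesicle tethering complex, had 225, 266 and 245 in Mest-KO pools, against 256, 282 and 265 in control pools (-0.12 ± 0.12, adjusted p 0.833), and its 2 other probe sets were too dim to test. Rasgrf1, a Ras exchange factor gene of neurons, had 30.4, 38.4 and 98.5 in Mest-KO pools, against 78.8, 61.4 and 41.9 in control pools (-0.19 ± 0.31), the widest interval of all 41. No probe set was listed for Zrsr1, a splicing factor gene, for the noncoding RNA Peg13 or for the potassium channel gene Kcnk9. Over the 28 tested members not given array by array by the naming rule, 13 were higher and 15 lower, between -0.19 and 0.24, and the smallest adjusted p was 0.617.

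Across the 83 kept probe sets of tested members, none passed an adjusted p of 0.05 (limma over probe sets), where 21 of 31526 probe sets did (0.0666%). At an unadjusted p under 0.05 there were 10 (12%, against 9.7% of all probe sets), and 18 did not overlap (21.7%, against 15%), 5 higher and 13 lower. The shares of all probe sets by direction were not counted, so the split of the 18 has no background here. Several of the 18 belong to the same gene, as in Peg3, Grb10 and Ube3a, and read the same RNA pools, so they are not separate results. In 20 members with more than 1 kept probe set, 42 pairs of the brightest and another probe set were compared, and 31 pairs had the same sign of difference. A difference between the members of a pair reached the exact p of 0.1 in 6 pairs, of Atp10a, Grb10, Ndn, Ppp1r9a and Ube3a, and the smallest p adjusted over the 42 was 0.7.

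The promoters of the members were richer in CpG than most. RefSeq windows were found for 37 of the 47 genes, 59 windows in all, with a median of 16 CpGs against 7 over all windows. The motif TGCCGC, which ZFP57 binds when its CpG is methylated, was searched on both strands and occurred in 14 of the 59 windows (23.7%), in 13 genes, against 11.6% of all windows. The upstream Grb10 window held 1, and the downstream Grb10 window and the Peg3 window held none. The motif itself holds a CpG, so CpG-rich windows have more occasion to hold it, and its share among windows of like CpG count was not taken. A pair of Mest windows that nearly coincide was counted as separate windows. The letters alone show neither binding nor methylation.

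Among factors that set or keep imprints, Zfp57 had the smallest p. Of 23 listed regulators 20 were tested, 10 higher and 10 lower in Mest-KO, none past the threshold and 1 at an unadjusted p under 0.05 (limma), which is 5% of them against 8.97% of all genes. That gene was Zfp57, which protects imprints by recruiting the corepressor TRIM28 to methylated control regions, with 1984, 1915 and 1912 in Mest-KO pools, against 1553, 1543 and 1559 in control pools. All Mest-KO pools stood above all control pools, with little spread within either group and a log2 difference of 0.32 ± 0.07 (1.25-fold, 95% interval 0.15 to 0.48, unadjusted p 0.00133, adjusted p 0.181). Zfp57 had a single probe set. The summed neuron markers were likewise higher in each Mest-KO pool than in each control pool, and their part in the Zfp57 value was not tested.

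The corepressor gene Trim28 differed by -0.13 ± 0.08, the maintenance methylation cofactor gene Uhrf1 by -0.15 ± 0.08 and Hnrnpu, a nuclear RNA-binding protein gene, by -0.15 ± 0.08, each with overlap. Besides Zfp57, 2 regulators, Ehmt1 (0.15 ± 0.09) and Eed (0.08 ± 0.07), did not overlap and were higher in Mest-KO, and they are named after their values were seen. The 3 are 15% of the tested regulators, near the 14.5% of all genes.

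Of 7 listed genes for receptors of IGF2, receptor substrates or proteins that bind its mRNA, 6 were tested, 1 higher and 5 lower. None was past the threshold and 0 were at an unadjusted p under 0.05 (limma). Igf1r, the receptor through which IGF2 signals, had 1396, 1573 and 1928 in Mest-KO pools, against 1808, 2133 and 1886 in control pools (-0.26 ± 0.12, adjusted p 0.560), and -0.15 without the first Mest-KO pool. The insulin receptor substrate genes Irs2 and Irs1 differed by 0.26 ± 0.17 and -0.09 ± 0.08, and the mRNA-binding protein gene Igf2bp3 by -0.06 ± 0.07.

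Of 20 further imprinted genes outside the 47, 17 were tested, 10 higher and 7 lower, none past the threshold and 2 at an unadjusted p under 0.05 (11.8%, against 8.97% of all genes). The same 2 were the ones without overlap (11.8%, against 14.5% of all genes). Klf14, a Krüppel-like factor gene near Mest, had 70.2, 82.4 and 69.4 in Mest-KO pools, against 51.1, 37.1 and 49.1 in control pools, with no overlap (0.55 ± 0.16, adjusted p 0.288). Dcn, the gene of the matrix proteoglycan decorin, had 227, 321 and 245 in Mest-KO pools, against 417, 348 and 345 in control pools, also with no overlap (-0.47 ± 0.15, adjusted p 0.323). Adam23 differed by 0.24 ± 0.11 and Ddc, an enzyme of monoamine synthesis, by -0.27 ± 0.13.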

How the data were processed

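Gene expression was measured on 6 1-colour Affymetrix arrays with 45101 probe sets. The deposited values are linear intensities that came from Affymetrix Expression Console 1.1, according to the submitters' processing notes. How probes were summarized is not given in the sources used here. On every array the mean without the lowest and highest 2% was close to 500.002, so a shift common to most genes cannot be seen. Depth does not apply to arrays, and the number of arrays limits the precision.

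Probe sets listed for several genes named none, and the 64 control probe sets were left out. Each gene was taken as its brightest probe set, with a mean above the 30th percentile of probe sets, and log2(intensity + 16) was compared with limma 3.58.1 (R 4.3.3, eBayes with trend, two-sided, Benjamini-Hochberg over all genes). A second fit took all 31526 probe sets above the same level. With the added 16, differences of dim genes come out too small. Means are given ± SD and log2 differences ± SE, and adjusted p values are from limma. Each array is a separate pool, labelled a biological replicate. Alternatives changed the normalization, pseudocount, filter, gene summary, variance model, block and replicates.

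The members and lists were chosen with earlier results of these data known. Members were given array by array where they passed the threshold, did not overlap, had the highest mean of their allele class or of a domain of 3 or more, or were Igf2, H19, Airn or Kcnq1ot1; Cdkn1c, Mest, Igf2r, Rasgrf1 and single probe sets of other genes were added after their values were seen. Of each list, genes past the threshold were named, otherwise up to 4 with the smallest p.

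The fit was tested on simulated data over 14170 genes: it recovered 23 of 67 genes changed 1.5-fold, 50 of 67 changed 2-fold and 65 of 66 changed 4-fold, and 6 of 144 calls were on unchanged genes. The data themselves gave 21 calls, so the adjusted threshold was stricter there, and the recovered shares can be too high for them.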

Additional observations from a re-analysis of the deposited data

How the results depend on the processing

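Under each of 15 alternatives 0 of the imprinted genes tested passed the threshold in limma, with between 0 and 6 at an unadjusted p under 0.05 and a smallest adjusted p of 0.183 (Atp10a without the second control array). Of 193 values of the 13 members described array by array by rule, 186 kept their direction and 7 reversed. With all probe sets of a gene averaged, Igf2 reversed to -0.0291 and Trappc9 to 0.0788. That average also takes in probe sets too dim to test, among them the other Trappc9 probe sets. Nap1l4 reversed to -0.0362 with median centring and ran from -0.0263 (without the first control array) to 0.0668 with 1 array left out. Ndn reversed to 0.0498 with quantile normalization and ran from -0.0182 to 0.0045 (without the third Mest-KO array) with 1 left out, and Peg10 ran from -0.1044 to 0.0965 (without the first Mest-KO array). Of the listed genes, Hnrnpu reversed to 0.136 with all probe sets averaged, and Trim28 ran from -0.2036 to 0.0769 (without the third control array). In each alternative the brightest probe set was chosen again from the arrays used. The last value came from another Trim28 probe set than that of the main fit. The probe set of the main fit read 5159, 4969 and 4636 in Mest-KO, against 5472 and 4898 in the first and second control pools. Without the third control array it thus stayed lower on average in Mest-KO. Beyond this change of probe set, the cause of the reversals was not tested.

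Zfp57 ran from 0.25 to 0.33 over its 15 alternatives, with adjusted p between 0.162 and 0.487. Members without overlap numbered 4 in place of 7 with probe sets averaged and 8 to 14 with 1 array left out. Groups with fewer arrays separate more easily, and the shares of all genes under these settings were not counted. The median log2 difference of the members became -0.074 with median centring, which moves all genes by -0.065 (-0.088 for the paternal and -0.045 for the maternal class). With 1 array left out it ran from -0.018 to 0.013 (paternal -0.048 to 0.018, maternal -0.011 to 0.069).

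Over all genes, the 12 higher calls became 22 with median centring, 0 without a filter, 1 with probe sets averaged, 0 with eBayes without trend, and 0 to 21 with 1 array left out. The 9 lower calls became 56, 2, 5 and 1 under the same settings in that order, and 2 to 63 with 1 array left out (21 and 63 without the second control array). With the replicate number as a block there were 3 higher and 6 lower calls, no member passed and 7 did not overlap. Same-numbered arrays did not deviate together (correlations of -0.028, -0.109 and -0.154), so the numbers were not taken to pair the arrays. Filtering at the 50th percentile tested 35 members, without Kcnq1 and Slc22a18, and no filter tested 43.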
